A study of Mus musculus with 6 samples.

Results

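CC chemokine ligands are small secreted proteins that draw immune cells along a gradient by binding G protein-coupled receptors on their surface. In the brain, microglia are a main source of several of them, and their transcripts are induced by NF-kB and AP-1 signaling downstream of pattern recognition and cytokine receptors. Some of these genes are also known to be induced while cells are taken out of tissue. The values below are the array signals of 10 ligand genes, Ccl2, Ccl3, Ccl4, Ccl5, Ccl6, Ccl7, Ccl8, Ccl9, Ccl12 and Ccl24, in microglia with 1 or no functional copy of Bhlhe41, which encodes a basic helix-loop-helix transcriptional repressor. The members were chosen by name, with earlier results of these data known. Every non-control probe whose transcript maps to 1 of these symbols was taken, which gave 11 probes for the 10 genes. In all, 33767 probes could be named, for 23462 genes.

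The study asked what changes in microglia of young mice, 3 months old, when Bhlhe41 is lost. Both groups carry a reporter allele that makes dTomato and Cre under control of the Bhlhe41 promoter. Its cassette sits before the start codon, so that Bhlhe41 protein is no longer translated from this allele. B41HET, the control (n = 3), is Bhlhe41 dTomato-Cre/+ and so is heterozygous rather than wildtype, and B41KO (n = 3) is Bhlhe41 dTomato-Cre/dTomato-Cre, so that the groups also differ in the number of reporter and Cre copies. The allele is carried by every cell of the animal. Live CD45low CD11b+ Cx3cr1+ cells were sorted from Percoll-enriched brain cells, and the Methods give 10 to 15 mice as the pool behind each sample, while the labels speak of 3 mice, so p-values measure the spread between these 3 samples per genotype.

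Each sample was hybridised to 1 array, on which each probe gives 1 fluorescence intensity. Values are log2 signals after quantile normalization, and changes are B41KO minus B41HET. Calls rest on limma with Benjamini-Hochberg adjustment over all 56601 probes tested, and needed both an adjusted p no higher than 0.05 and a log2 change of at least 0.5 in either direction. The brightest probe stood for a gene. On the 6 arrays 70.1% to 75.5% of probes were well above background, and no spot was saturated. Of all probes, 975 were called higher and 1892 lower, a split that became 1297 and 1534 when each array was shifted to its 75th percentile, which moved the median change of all probes from 0.02 to 0.13. Both Bhlhe41 probes were measured in every sample and neither was lower in B41KO (log2 fold change 0.38, adjusted p = 0.33, and 0.33, adjusted p = 0.203), so the transcript does not check the labels. The allele is described as ending translation, and whether it removes the transcript that these probes read was not tested. B41HET and B41KO name the samples so labelled, and every direction below rests on those labels.

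Among the 10 ligands, 4 fell in B41KO microglia: Ccl7, Ccl12 and Ccl8, from the monocyte chemoattractant group, and Ccl4, an inflammatory ligand of macrophages and microglia. Their log2 fold changes ran from -1.18 to -0.66. No ligand was called higher (0 by limma, and 2 at an unadjusted p under 0.05, Ccl2 and Ccl5), and Ccl2, Ccl3, Ccl5, Ccl6, Ccl9 and Ccl24 did not pass the test. Across all genes 4.01% were called lower and 1.44% higher. The share of all genes with an unadjusted p under 0.05 was not computed. Counts at that threshold, here and below, therefore cannot be read as an excess. Of the 11 ligand probes 5 were called lower, against 3.34% of all probes. All 3 B41KO samples lay below all 3 B41HET samples for 6 ligands and above them for 2, where this held for 18.0% and 14.2% of all genes. The median log2 fold change of the 10 ligands was -0.30, compared with 0.01 for all genes. Because the list was chosen with earlier results known, these shares and medians do not test for an excess. All 11 probes were well above background on all 6 arrays, and none had an outlier flag.

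**Figure D1:**
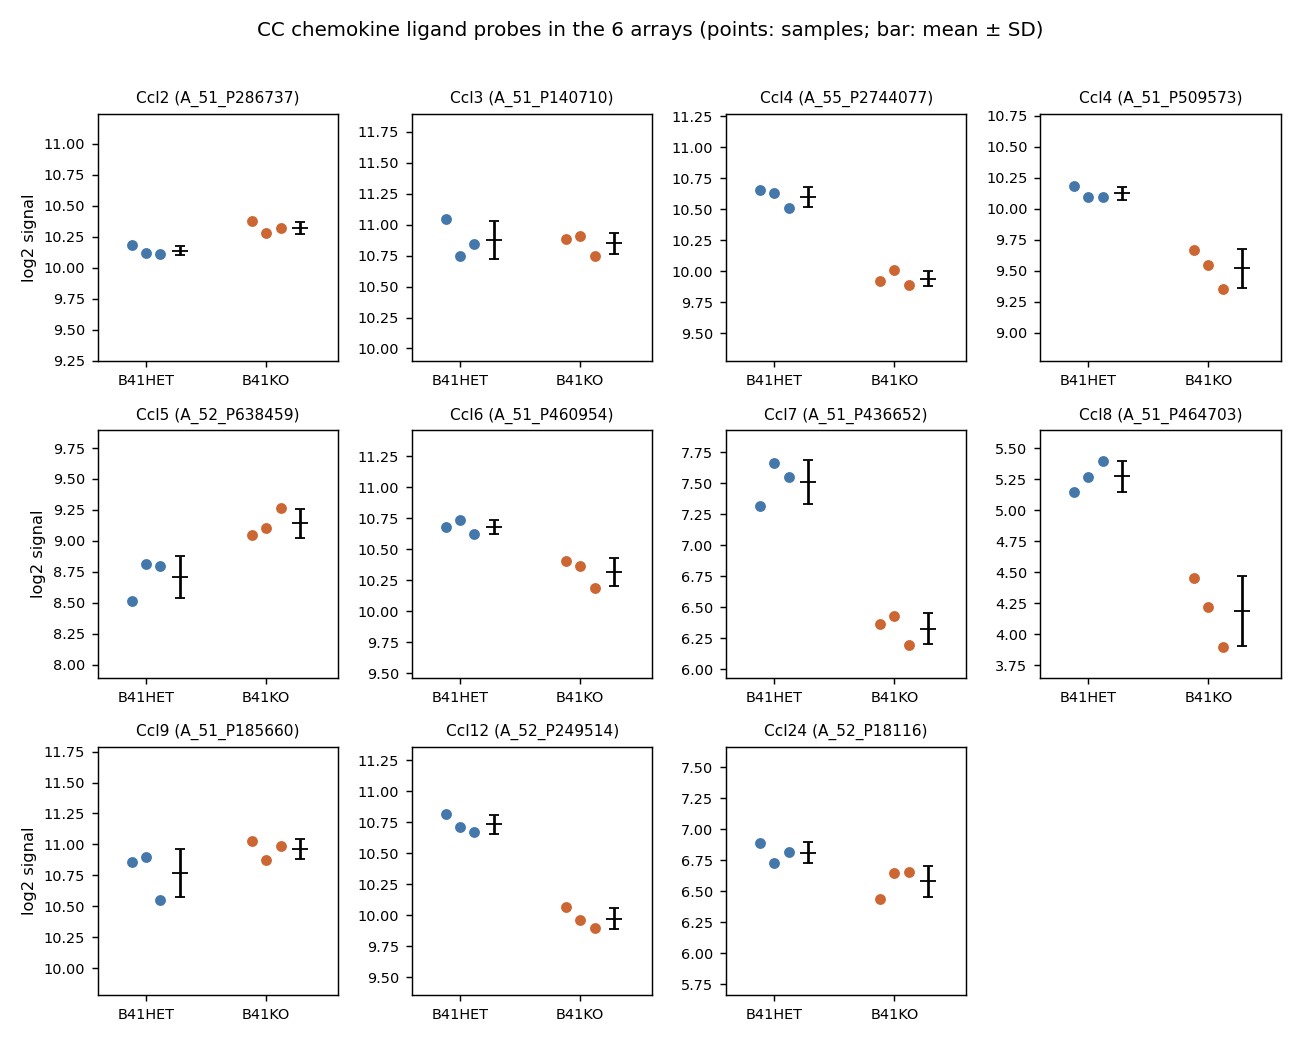
Log2 signal of each CC chemokine ligand probe in every sample, with 1 panel per probe and a vertical axis of the same span in each. Points are the samples of B41HET and B41KO, replicates 1 to 3 from left to right, and the bar beside them is the mean ± SD (n = 3). The groups stand far apart for Ccl7, Ccl8, Ccl12 and both Ccl4 probes and overlap for Ccl3 and Ccl9.

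Ccl7, Ccl12 and Ccl2 attract monocytes through Ccr2, and Ccl8 belongs to the same group by sequence, although in the mouse it acts on Ccr8. Ccl7 gave log2 signals of 7.32, 7.66 and 7.55 in B41HET and of 6.36, 6.43 and 6.19 in B41KO. The groups did not overlap, and 0.89 on the log2 scale separated the lowest B41HET sample from the highest B41KO sample. The log2 fold change was -1.18 (standard error 0.12, 95% interval -1.48 to -0.88, adjusted p = 0.00886), which is 56% lower. Ccl7 was called with each of the 6 samples left out in turn (adjusted p = 0.0262 to 0.044). With background corrected by normexp on the median spot signals its change was -0.76.

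Ccl12 was among the brighter ligand probes, at 10.82, 10.71 and 10.67 in B41HET and 10.07, 9.96 and 9.89 in B41KO. Every B41KO sample was lower than every B41HET sample, with a gap of 0.61. This was a log2 fold change of -0.76 (standard error 0.08, 95% interval -0.97 to -0.56, adjusted p = 0.0103). Without B41HET replicate 2 the call was lost (adjusted p = 0.0545), with a change of -0.77.

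Ccl8 was the dimmest of the ligands. Its log2 signals were 5.15, 5.27 and 5.40 in B41HET and 4.45, 4.22 and 3.89 in B41KO, from processed intensities of 37.8 to 43.2 in B41HET and of 14 to 20 in B41KO. The groups did not overlap, and the B41KO samples were spread more (SD 0.28 against 0.12). Ccl8 changed by -1.08 on the log2 scale (standard error 0.16, 95% interval -1.48 to -0.69, adjusted p = 0.0223). This was the least firm of the 4 calls: it was lost without any of the 3 B41HET samples or B41KO replicate 2 (adjusted p = 0.0683 to 0.0877), and with normexp correction, where the change was -0.30.

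Ccl2, the first gene of the same chromosomal cluster, was not lower. Its signals were 10.18, 10.12 and 10.11 in B41HET and 10.37, 10.28 and 10.32 in B41KO, so that all B41KO samples lay above all B41HET samples by a gap of 0.10. The log2 fold change of 0.19 (standard error 0.07, 95% interval 0.02 to 0.35, adjusted p = 0.179) did not pass the test.

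Ccl3 and Ccl4 are closely related inflammatory ligands made early by activated macrophages and microglia. The brighter Ccl4 probe gave 10.66, 10.63 and 10.51 in B41HET and 9.92, 10.01 and 9.89 in B41KO, with no overlap between the groups. It changed by -0.66 on the log2 scale (standard error 0.08, 95% interval -0.85 to -0.46, adjusted p = 0.0128). The other Ccl4 probe gave 10.18, 10.10 and 10.10 in B41HET and 9.67, 9.54 and 9.36 in B41KO, and changed by -0.60 (standard error 0.10, adjusted p = 0.0296). Both probes therefore gave the same direction and nearly the same size. The brighter probe lost its call without B41HET replicate 1 (adjusted p = 0.055), B41HET replicate 2 (adjusted p = 0.0659) or B41KO replicate 1 (adjusted p = 0.0513).

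Ccl3, in contrast, moved by less than the spread between its samples. It gave 11.05, 10.75 and 10.84 in B41HET and 10.89, 10.91 and 10.75 in B41KO, and the groups overlapped throughout. Its log2 fold change was -0.03 (standard error 0.11, 95% interval -0.29 to 0.23, adjusted p = 0.906), and its sign turned with the authors' processed values.

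Ccl5, a ligand made by T cells, NK cells and activated myeloid cells, pointed the other way. Its signals were 8.52, 8.81 and 8.80 in B41HET and 9.05, 9.10 and 9.27 in B41KO, with all B41KO samples above all B41HET samples by 0.24. The log2 fold change of 0.43 (standard error 0.12, 95% interval 0.15 to 0.72, adjusted p = 0.0916) did not pass the test.

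Ccl6 and Ccl9 are ligands of Ccr1 found in rodents, and lie next to each other. Ccl6 gave 10.68, 10.73 and 10.62 in B41HET and 10.40, 10.36 and 10.19 in B41KO. The groups did not overlap, but the change of -0.36 (standard error 0.09, 95% interval -0.58 to -0.15, adjusted p = 0.0718) did not pass the test. Ccl9 gave 10.86, 10.90 and 10.55 in B41HET and 11.02, 10.88 and 10.99 in B41KO, where the groups overlapped and B41HET replicate 3 was the lowest (log2 fold change 0.19, 95% interval -0.10 to 0.49, adjusted p = 0.402).

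Ccl24, an eosinophil attractant that binds Ccr3, is the only member outside chromosome 11, on chromosome 5. It gave 6.89, 6.73 and 6.81 in B41HET and 6.43, 6.65 and 6.66 in B41KO. The B41KO samples were all lower, by a gap of only 0.07, and the change of -0.23 (standard error 0.10, 95% interval -0.47 to 0.01, adjusted p = 0.227) did not pass the test.

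**Figure D2:**
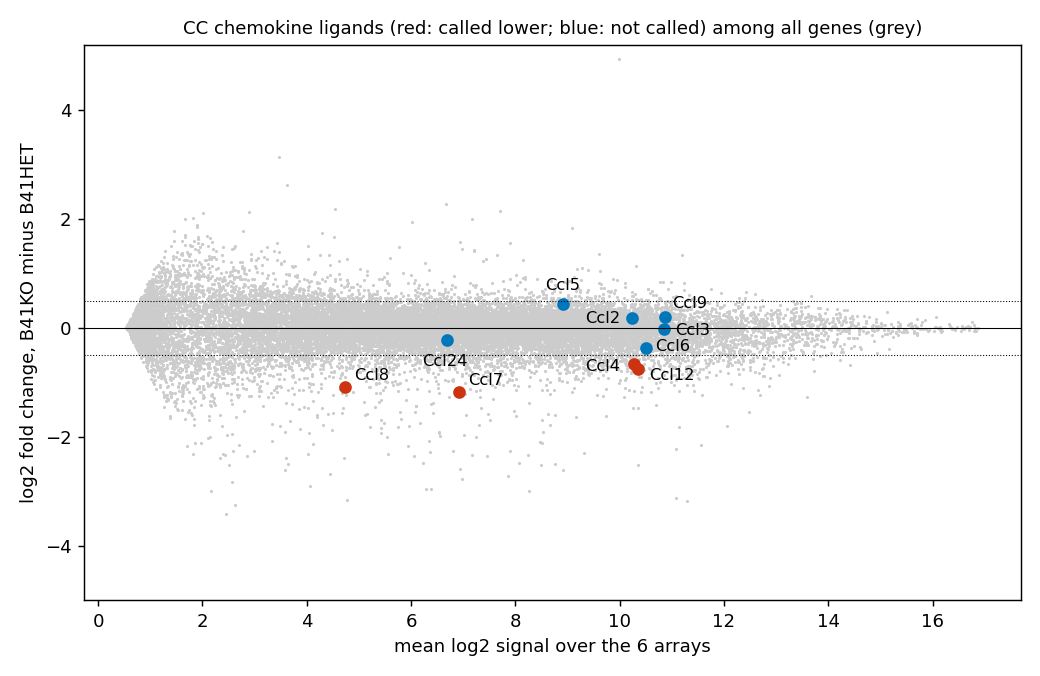
Log2 fold change (B41KO minus B41HET) against the mean log2 signal over the 6 arrays for all 23462 genes by their brightest probe (grey), with the 10 CC chemokine ligands marked, red where called lower and blue where not called. Dotted lines are the fold thresholds of 0.5 and -0.5. The 4 called ligands lie at both low (Ccl8) and high (Ccl4, Ccl12) signal.

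The arrays lay on 1 slide, and genotype and position were in part shared: the 3 B41HET arrays and that of B41KO replicate 1 were in row 1, and those of B41KO replicates 2 and 3 were in row 2. Within row 1, B41KO replicate 1 lay below the mean of the B41HET samples by 1.15 for Ccl7, 0.82 for Ccl8, 0.67 for Ccl12 and, on the brighter probe, 0.68 for Ccl4. Row 2 held no B41HET array and gave no value of its own. With the row as a block, a fit in which this 1 B41KO array carries the contrast, 0 of the 10 ligands were called (adjusted p = 0.0892 to 0.144 for those 4, and 5 lower and 0 higher at an unadjusted p under 0.05).

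The 9 members on chromosome 11 stand in 2 groups of neighbouring genes. In the annotation of GRCm38.p6 the protein-coding genes of the first run in the order Ccl2, Ccl7, Ccl11, Ccl12, Ccl8 and Ccl1, and those of the second Ccl5, Ccl9, Ccl6, Ccl3 and Ccl4. Coordinates of the genes are not given, because the array was designed on mm9. Of the first group Ccl7, Ccl12 and Ccl8 were called and Ccl2 was not, and of the second Ccl4 was called and Ccl3, Ccl5, Ccl6 and Ccl9 were not. Between Ccl2 and its neighbour Ccl7 the log2 fold changes differed by 1.37, and the difference between their 2 signals was 2.45 to 2.86 in B41HET samples and 3.85 to 4.13 in B41KO samples. Between Ccl3 and Ccl4 they differed by 0.63, and within each sample Ccl3 exceeded Ccl4 by 0.12 to 0.39 in B41HET and by 0.86 to 0.96 in B41KO. Since probes differ in brightness, only the shift of such a difference between genotypes, not its level, can be read.

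These differences were computed for 7 pairs of members that follow each other, with Ccl11 between Ccl7 and Ccl12, and the pairs share members. In an exact two-sided permutation test no pair went below p = 0.1, the smallest value that 3 samples against 3 allow, or below 0.14 after adjustment over the 7 pairs, so that no pair could pass a threshold of 0.05. Of the genes beside the members, Ccl11, an eosinophil attractant, was not called (log2 fold change 0.28, adjusted p = 0.451), and Ccl1 was not well above background in any sample. Past Ccl4, Wfdc17 (log2 fold change -1.42, adjusted p = 0.119) and Wfdc18 (-0.10, adjusted p = 0.765) were not called. Wfdc21, the next gene and one expressed in neutrophils, was called lower (-2.71, adjusted p = 0.00104). Heatr6 beyond it was not called (-0.12, adjusted p = 0.53), and neither were the other flanking genes, 1700071K01Rik, Tmem132e and Heatr9. In the RefSeq table the span of Ccl4 overlaps that of Ccl3, although each gene was read by its own probes.

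**Figure D3:**
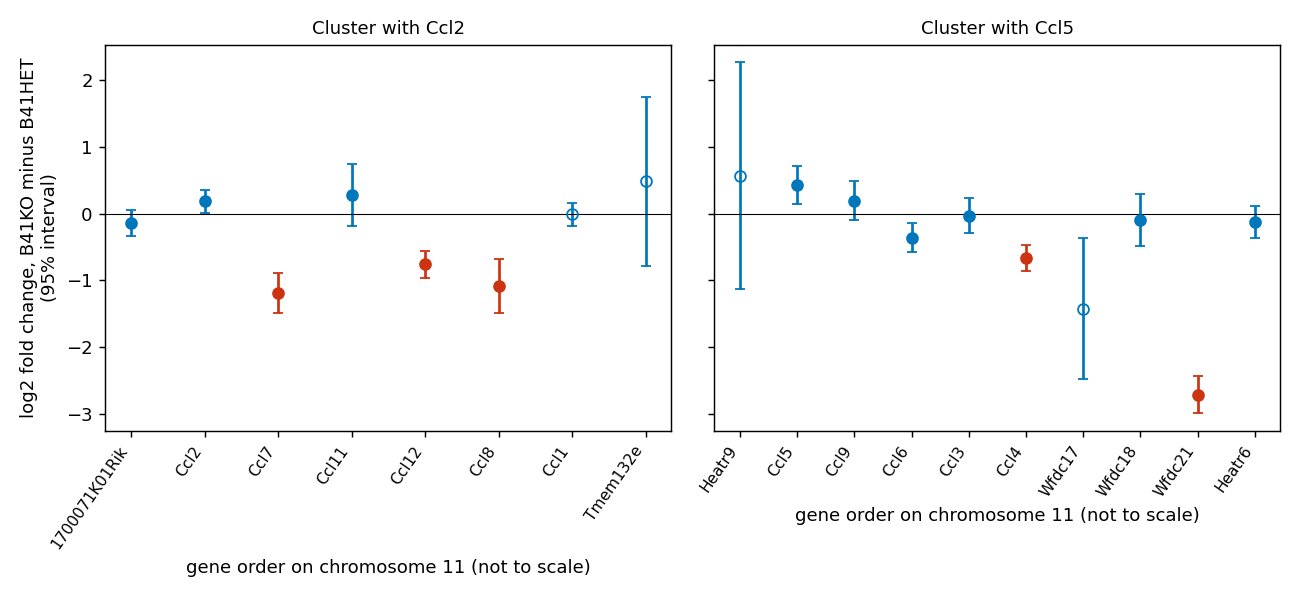
Log2 fold change (B41KO minus B41HET) with its 95% interval from limma for genes in their order along the 2 groups on chromosome 11 and the genes that flank them. Red genes were called, blue were not, and open circles mark genes that were not well above background on all 6 arrays. Ccl7, Ccl12 and Ccl8 lie low beside Ccl2, and Ccl4 lies low beside Ccl3.

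Promoter windows of 250 bases before and 50 after the start site were at hand for 5 of the 10 members (Ccl3, Ccl6, Ccl8, Ccl9 and Ccl12) from RefSeq on GRCm38.p6. The parts before the start site of Ccl12 and Ccl8, neighbours that both fell, and of Ccl3, which was not called, are printed so that they can be compared. Capitals mark matches, on either strand, to the E-box core CANNTG, to which basic helix-loop-helix proteins bind, and to the TATA box letters TATAAA.
Ccl12 (chr11:82101595-82101844, plus strand): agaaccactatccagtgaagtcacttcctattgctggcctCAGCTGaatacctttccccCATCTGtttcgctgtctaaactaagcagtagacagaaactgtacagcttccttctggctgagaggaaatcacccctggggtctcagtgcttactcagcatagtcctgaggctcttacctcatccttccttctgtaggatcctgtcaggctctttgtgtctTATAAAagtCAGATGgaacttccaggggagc
Ccl8 (chr11:82114935-82115184, plus strand): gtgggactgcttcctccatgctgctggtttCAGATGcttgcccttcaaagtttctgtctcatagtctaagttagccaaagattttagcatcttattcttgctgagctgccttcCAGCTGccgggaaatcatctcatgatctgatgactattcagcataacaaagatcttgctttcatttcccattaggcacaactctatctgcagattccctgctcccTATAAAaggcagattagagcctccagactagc
Ccl3 (chr11:83649379-83649628, minus strand): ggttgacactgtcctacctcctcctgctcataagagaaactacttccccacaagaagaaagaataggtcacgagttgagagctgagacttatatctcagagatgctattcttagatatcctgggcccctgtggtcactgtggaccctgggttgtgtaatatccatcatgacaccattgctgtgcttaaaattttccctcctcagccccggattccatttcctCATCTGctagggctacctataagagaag

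None of the 5 windows held CACGTG, the E-box form bound by Bhlhe41 and its relatives, which occurred in 7.15% of the 32851 windows of the table. The core CANNTG, which also covers CACGTG, occurred in 72.3% of all windows and in all 5 members, at 3 positions in Ccl12, 2 in Ccl8, 2 in Ccl3 (1 of them after the start site) and 1 each in Ccl6 and Ccl9. TATAAA, on either strand, occurred in 13.6% of windows and, among the members, in Ccl12, Ccl8 and Ccl9. In Ccl12 and Ccl8 it began 31 and 32 bases before the start site. The AP-1 letters TGANTCA (7.81% of windows) and the NF-kB consensus (4.51%) occurred in Ccl9, which was not called, and not in the windows of the other members. A match is a match of letters only, and its absence from a window of this length says nothing about binding elsewhere.

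Outside the 10 members the chemokine system moved in a few genes. Of 11 other CC ligands 0 were called by limma (median log2 fold change 0.10), with 2 higher and 0 lower at an unadjusted p under 0.05. Of 16 measured CXC, CX3C and XC ligands 2 were called, both lower, with a median of 0.01. Cxcl2, a neutrophil attractant, was not well above background in any B41KO sample. On the processed signals it was at least 1.81-fold lower (adjusted p = 0.0106), and with normexp correction its change was -0.32. Pf4, a platelet chemokine also made by macrophages, changed by -0.72 (adjusted p = 0.0299). Neither was called with normexp correction.

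The receptors for these ligands were read in the same cells. Of 15 receptor genes 3 were called lower and 1 higher, with a median of -0.24, or -0.26 relative to all probes. The latter became -0.19 after the 75th percentile shift and -0.01 after normexp correction. Among them, Ccrl2, which binds chemerin without signaling, changed by -0.89 (adjusted p = 0.0178), Ccr6, the receptor of Ccl20, by -0.67 (adjusted p = 0.0102), and Ccr1l1, a gene related to Ccr1, by 0.53 (adjusted p = 0.0459). The higher call of Ccr1l1 was lost with each of the 6 samples left out, with the probes of a gene averaged, and with normexp correction, where its change was 0.26. Ccr2, the receptor of Ccl2, Ccl7 and Ccl12, was dim and not called (-0.30, adjusted p = 0.394). Ccr3 was not called (0.07, adjusted p = 0.758), and Ccr1 was not well above background in any sample.

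Genes of NF-kB and inflammatory induction, the pathway that induces several of the ligands, were called lower in 3 of 16 and higher in 0 (7 and 1 at an unadjusted p under 0.05), with a median of -0.24. Tnf, a cytokine induced together with Ccl3 and Ccl4 in activated microglia, gave 13.05, 13.13 and 13.18 in B41HET and 12.44, 12.39 and 12.34 in B41KO, a log2 fold change of -0.73 (adjusted p = 0.00831). Nfkb2, an NF-kB subunit, changed by -0.60 (adjusted p = 0.0393). Icam1, an adhesion molecule, changed by -0.58 on its brightest probe (adjusted p = 0.0442) and by 0.29 on the other (adjusted p = 0.111). Its call was lost with the 75th percentile shift (adjusted p = 0.0604) and with the authors' processed values (adjusted p = 0.0656). Il1b was not called on its brightest probe (-0.37, adjusted p = 0.105) but was on the other (-1.56, adjusted p = 0.012).

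Immediate early genes, which are induced when cells are handled, were called lower in 8 of 18 and higher in 0 (12 and 0 at an unadjusted p under 0.05), with a median of -0.52. Among them were Hspa1a, a heat shock chaperone (-1.98, adjusted p = 0.00157, and -1.25 with normexp correction), and the transcription factors Atf3 (-1.27, adjusted p = 0.00431) and Klf2 (-1.16, adjusted p = 0.00435). Hspa1b, of the same list, lay above 0 and was not called (0.25, adjusted p = 0.269). Dusp1, a MAP kinase phosphatase, changed by -1.11 (adjusted p = 0.00466), and the AP-1 subunits Fosb by -0.92 (adjusted p = 0.0081) and Fos by -0.60 (adjusted p = 0.0452). Fos was not called with the 75th percentile shift (adjusted p = 0.0526) or with the authors' processed values (adjusted p = 0.0517). Their summed signal was 123000 to 129000 in B41HET samples and 80800 to 85100 in B41KO samples. The part of handling in the lower ligand signals was not tested.

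**Figure D4:**
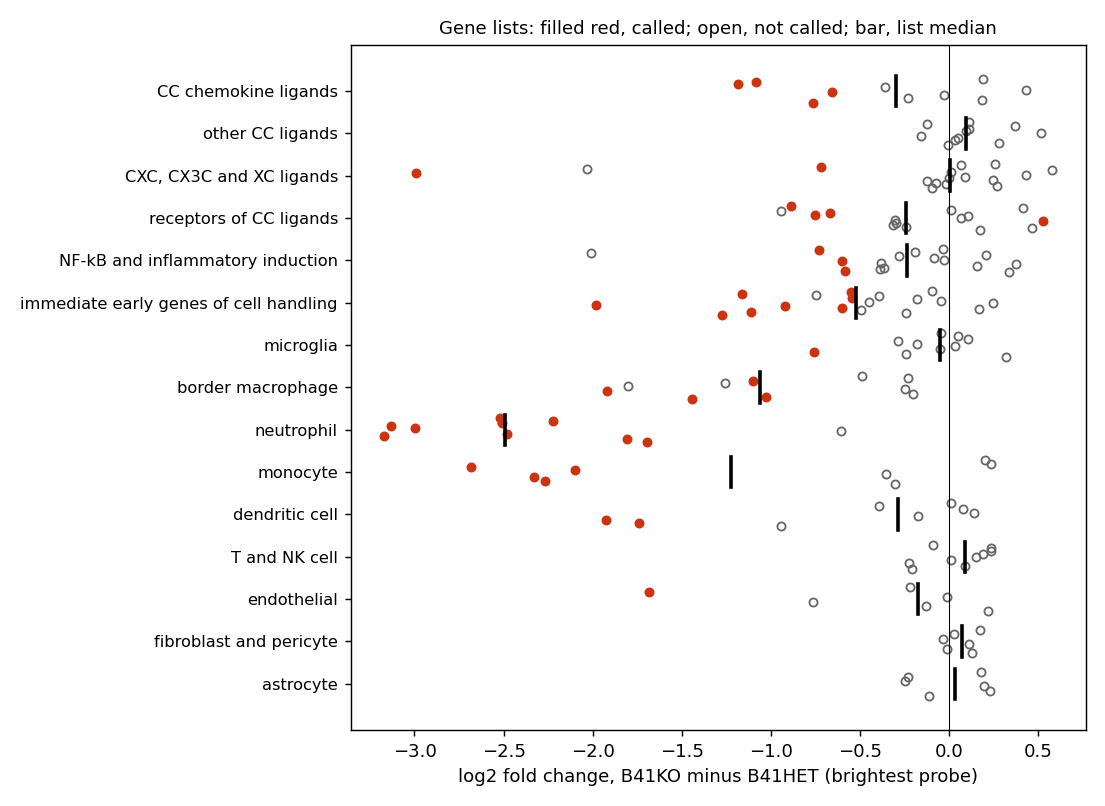
Log2 fold change (B41KO minus B41HET) of each gene of the lists by its brightest probe. Filled red circles are called genes, open circles genes that were not called, and black bars list medians. The ligands spread on both sides of 0, while the immediate early, border macrophage, neutrophil and monocyte lists lie mostly below it.

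The defining markers of microglia were present in all samples. All 10, among them P2ry12 and Tmem119, were well above background on all 6 arrays, with a median change of -0.05 and a summed signal of 157000 to 172000 in B41HET and 153000 to 162000 in B41KO. One of them, the Fc receptor-like gene Fcrls, was called (-0.76, adjusted p = 0.00581). In bulk RNA, fewer cells of another type and less RNA per cell cannot be told apart, and markers of neutrophils, monocytes and border macrophages moved in the direction of the called ligands.

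Of 10 neutrophil markers 9 were called lower (median -2.49), and their summed signal fell from 31100 to 35100 in B41HET to 5800 to 6300 in B41KO. Among them were Ltf (-3.17, adjusted p = 0.00104), Ngp (-3.13, adjusted p = 0.000336), Mmp9 (87.5% lower, adjusted p = 0.000282), S100a9 (-2.52, adjusted p = 0.000895), Retnlg (-2.51, adjusted p = 0.000282) and Ly6g (-2.48, adjusted p = 0.00101). Of 8 monocyte markers 4 were called lower (median -1.22), with summed signals of 1410 to 1490 and 409 to 432. Those 4 were Plac8 (-2.68, adjusted p = 0.0361, well above background on 2 of 3 B41KO arrays, and -0.79 with normexp correction), F10 (at least 1.74-fold lower, adjusted p = 0.0134), Chil3 (-2.26, adjusted p = 0.000418) and Ly6c2 (-2.10, adjusted p = 0.000675). All 10 neutrophil markers remained well above background in all samples.

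Border macrophages are a known source of Ccl8 and Ccl24, among other ligands. Of 10 of their markers 4 were called lower and 8 were lower at an unadjusted p under 0.05 (median -1.06), with summed signals of 2520 to 2710 in B41HET and 1760 to 1920 in B41KO. The 4 called were F13a1 (-1.92, adjusted p = 0.0374, well above background on 1 of 3 B41KO arrays), Cbr2 (-1.44, adjusted p = 0.00681), Ms4a7 (-1.10, adjusted p = 0.0108) and the scavenger receptor Cd163 (-1.02, adjusted p = 0.00506). Mrc1 (adjusted p = 0.0745) and Lyve1 (adjusted p = 0.0974) were not called, and neither was well above background in any B41KO sample. With normexp correction the medians of the border macrophage and monocyte lists were -0.25 and -0.17, and that of the neutrophil list was -2.20, while Cbr2 changed by -0.73 and Cd163 by -0.53, and F13a1 (-0.48), Ms4a7 (-0.29) and the monocyte marker F10 (-0.20) were not called. Of 8 dendritic cell markers 2 were called lower, Clec10a (-1.92, adjusted p = 0.00226) and Cd209a (-1.74, adjusted p = 0.0179), and the median was -0.28, with 3 markers above 0. With normexp correction these values were -0.84, -0.91 and, for the median, -0.04. The dendritic cell markers had summed signals of 378 to 433 and 239 to 262.

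Of 9 T and NK cell markers, a source of Ccl5, 0 were called by limma (1 higher and 1 lower at an unadjusted p under 0.05), with summed signals of 462 to 493 in B41HET and 500 to 502 in B41KO. Of 6 endothelial markers 1, Pecam1, was called lower (-1.68, adjusted p = 0.00301), and 0 of 6 fibroblast and pericyte markers and 0 of 6 astrocyte markers were called by limma (0 and 1 at an unadjusted p under 0.05). The sort for CD45low CD11b+ Cx3cr1+ cells is meant to leave out neutrophils, T cells and most other leukocytes. The part of other leukocytes in the lower signals of Ccl4, Ccl7, Ccl8 and Ccl12 was not tested.

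**Figure D5:**
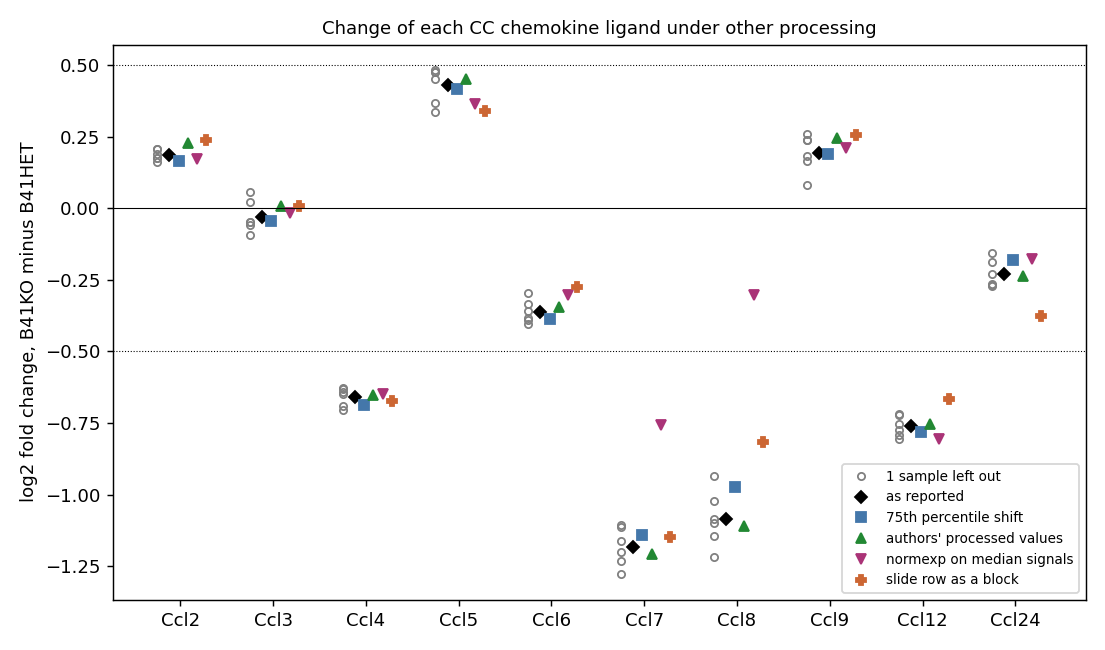
Log2 fold change (B41KO minus B41HET) of each CC chemokine ligand as reported and under other processing: each array shifted to its 75th percentile, the authors' processed values, normexp background correction, the slide row as a block, and each of the 6 samples left out in turn. Dotted lines are the fold thresholds of 0.5 and -0.5. Ccl4, Ccl7, Ccl8 and Ccl12 lie below 0 in all of these and only Ccl3 crosses 0, while Ccl8 with normexp correction lies between 0 and -0.5.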

How the data were processed

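Sorted microglia of 3 B41HET and 3 B41KO samples were analyzed on 1-colour SurePrint G3 Mouse arrays. For each array the authors deposited the scanner output of Feature Extraction 11.5.1.1, whose processed intensity is background-subtracted and detrended within the array and not normalized between arrays. The processed log2 values that the authors deposited ranked probes as each array did (Spearman correlation 0.999999 to 1) and had sample medians of 5.1059 to 5.1063. Their scale is not stated with them, they were taken to be quantile-normalized, and they served as an alternative. Probes were not given gene names in either.

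Of 62976 spots, 59305 were not controls and were used, except for 95 to 136 with an outlier flag on each array. Log2 processed intensities were quantile normalized and averaged over the spots of 56605 probes, of which 56601 had at least 2 values in each group. Genotypes were compared with limma 3.58.1 in R 4.3.3 (with the package data.table, version 1.17.8), with genotype as the only term, following the study's methods for normalization, test and thresholds. Without a filter, dim probes were tested as well. Probes were named by matching transcript accessions, without versions, to RefSeq genes on GRCm38.p6 (33767 probes, 59.7%). Bounds for genes not well above background in 1 group (written "at least") set the mean of the other group against the lowest signal well above background on each array. They hold for the quantile-normalized processed intensities only, and the changes with normexp correction were smaller for Cxcl2 (-0.32) and F10 (-0.20). Promoter motifs were searched in Python 3.11.15, and figures were drawn with matplotlib 3.10.9. The model was tested on simulated data. The number of arrays limits the precision.

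The members and the gene lists were chosen with earlier results of these data known. Named were all members, up to 6 called genes of each other list by size of change, the receptors Ccr1, Ccr2 and Ccr3, and Tnf and Il1b. The markers P2ry12, Tmem119, Mrc1 and Lyve1, and also Hspa1b, were named outside this rule, after their values were seen. One item of the lists is not reported here. The genes beside the members were named for their position, in stretches drawn as far as Ccl1 and Wfdc21 and the next gene. Alternatives were a 75th percentile shift, the authors' values, normexp background correction with an offset of 50 on median spot signals, no outlier flags, only probes that 3 or more arrays showed well above background, a trended robust variance, blocks for the replicate number or the slide row, leaving out each sample, no fold threshold, and averaging the probes of each gene. All arrays shared 1 slide and scan.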

Additional observations from a re-analysis of the deposited data

How the results depend on the processing

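Counts of called genes were 4 ligands, 0 other CC ligands, 2 CXC, CX3C and XC ligands, 4 receptors, 3 NF-kB and 8 immediate early genes, with 5 ligand probes. The count of other CC ligands was 0 under every alternative. With normexp correction 3 ligands, 4 ligand probes and 0 CXC, CX3C and XC ligands were called, and Ccl8 lost its call. With the slide row as a block 0 ligands, 0 ligand probes, 0 CXC, CX3C and XC ligands, 0 receptors, 0 NF-kB genes and 2 immediate early genes were called, and 444 of all probes against 2867. With 1 sample left out, called were 1 to 4 ligands, 1 to 4 ligand probes, 1 CXC, CX3C or XC ligand, 1 to 3 receptors, 1 to 2 NF-kB genes and 5 to 6 immediate early genes, and 792 to 1525 of all probes. Only 1 ligand, Ccl7, was called without B41HET replicate 2, and 2 were without B41HET replicate 1. The cause of these losses was not tested, beyond the smaller number of samples. With normexp correction 1500 of all probes were called.

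The log2 fold change of Ccl3 turned positive with the authors' values (0.0065), with the slide row as a block (0.0084), without B41HET replicate 1 (0.0558) and without B41KO replicate 3 (0.0207), and ranged from -0.0949 to 0.0558 with 1 sample left out. The other 9 ligands kept their sign with the 75th percentile shift, the authors' values, normexp correction, the slide row as a block and each sample left out. Relative to the median of all probes, the changes with the 75th percentile shift were -1.27 for Ccl7 and 0.04 for Ccl2.

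Samples with the same replicate number in both genotypes deviated together only weakly (correlations of 0.028, 0.014 and 0.048 across probes), so the numbers were not taken to pair the samples. With the replicate number as a block 0 ligands, 0 ligand probes, 0 CXC, CX3C and XC ligands, 0 receptors, 0 NF-kB genes and 0 immediate early genes were called, and 42 of all probes. The 4 ligands then had an adjusted p of 0.0709 to 0.104, and 5 ligands were lower and 1 was higher at an unadjusted p under 0.05. Sample B41HET 1 correlated equally with B41KO 1 and B41KO 2, and samples 2 and 3 of B41HET correlated best with their own number.

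Signal over background limits Ccl8, whose median spot signal was 37.5 to 63.5 on the 6 arrays, and no sample is wildtype.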
